A study of Mus musculus with 3 samples.

Results

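RNA bound to chromatin was sequenced from macrophages grown from mouse bone marrow, and 38 genes of glucose transport, glycolysis, lactate handling and the pentose phosphate pathway are described here. They were given as a list of names, and all 38 were found among the 55536 named genes of the gene tables, of which 21951 are protein-coding. The series had 1 group of 3 libraries, replicates 1, 2 and 3. The cells were primary macrophages of strain C57BL/6J, and the labels give neither sex nor age. All libraries shared the same treatment. Lipid A, the lipid anchor of lipopolysaccharide and a ligand of TLR4, was given at 100 ng/ml for 12 h and washed out for 12 h, and a second dose of 100 ng/ml followed for 20 min. Untreated cells, cells with a single exposure and other RNA fractions were not analysed here, so no value below is an effect of Lipid A. Although labelled as biological replicates, the libraries carry 1 donor entry, and the spread between them could be technical in part.

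Glycolysis turns 1 glucose into pyruvate in the cytosol and yields ATP and NADH without oxygen. Macrophages activated by lipopolysaccharide are known for a shift towards glycolysis and lactate export, in which the transcription factor HIF-1alpha takes part. The pentose phosphate pathway branches off at glucose 6-phosphate. Its oxidative arm makes NADPH, which the phagocyte oxidase uses, and its non-oxidative arm returns sugars to glycolysis. Chromatin-bound RNA is enriched in transcripts that are being made or processed, so its levels are not those of the cell's finished mRNA.

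Total expected counts were 13953780, 24222661 and 16571228 in replicates 1, 2 and 3, and a gene with 0 counts could still hold up to 3 (0.220, 0.124 and 0.182 CPM, the count scaled to library size). The chi-square of counts between pairs of libraries was 27.1 to 63.2 per degree of freedom, so no pair was the same library within counting noise. Starting RNA, per the labels, was 1 µg for replicate 1, 250 ng for replicate 2 and 500 ng for replicate 3, so its amount cannot be told apart from the replicate. TPM, the authors' transcript level, is scaled for transcript length and for the library. All 8 macrophage markers reached 1 TPM in every library (summed level 845 to 1020 TPM). The summed level was 0.71 to 1.27 TPM for 8 neutrophil markers, 0.22 to 0.28 for 6 of T and NK cells, 0.24 to 0.38 for 5 of B cells, 1.52 to 2.14 for 5 of dendritic cells, 0.06 to 0.28 for 6 of erythroid cells and 2.17 to 2.65 for 6 of stroma and endothelium. Markers listed at 0 in every library of the gene table included S100a8, S100a9, Ly6g, Cxcr2, Ncr1, Cd2, Hbb-bs and Hbb-bt. In the second quantification the sums were higher for neutrophils (6.56 to 10.8 TPM, of which Cxcr2 4.42) and T and NK cells (15.9 to 19.8, of which Cd3d 14.0). They were also higher for stroma and endothelium (10.7 to 14.5, of which Pecam1 9.50), dendritic cells (6.30 to 6.93) and B cells (1.43 to 1.78). Within these lists the libraries differed for several markers. Col1a1, Col1a2 and Col3a1 had 0 counts each in replicate 1 and 20 to 41 in replicates 2 and 3. Among the macrophage markers Cd14 had 37.8, 22.8 and 115.9 TPM and Cd68 had 49.5, 18.4 and 37.8 TPM in replicates 1, 2 and 3. The part of other cells in the results was not tested. In bulk RNA, fewer cells of a type and less RNA per cell cannot be told apart.

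Most of the pathway was present on chromatin, with a single hexokinase far above everything else. Of the 38 genes, 34 (89.5%) were at 1 TPM or more in every library, against 45.3% of all protein-coding genes, and 24 had a mean of 10 TPM or more. The median of the 38 mean levels was 14.7 TPM, against 0.69 TPM over all protein-coding genes. The members' median was 14.8, 14.1 and 15.3 TPM in replicates 1, 2 and 3. Hk3, Pkm, Pfkfb3 and Pgd stood at the top, and Aldoc, Ldhb and Slc16a1 lay under 1 TPM in every library. Slc2a3 was the other gene below the threshold, in replicate 1 alone. All levels between genes are compared in TPM below, with mean ± SD over libraries (n = 3).

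**Figure D1:**
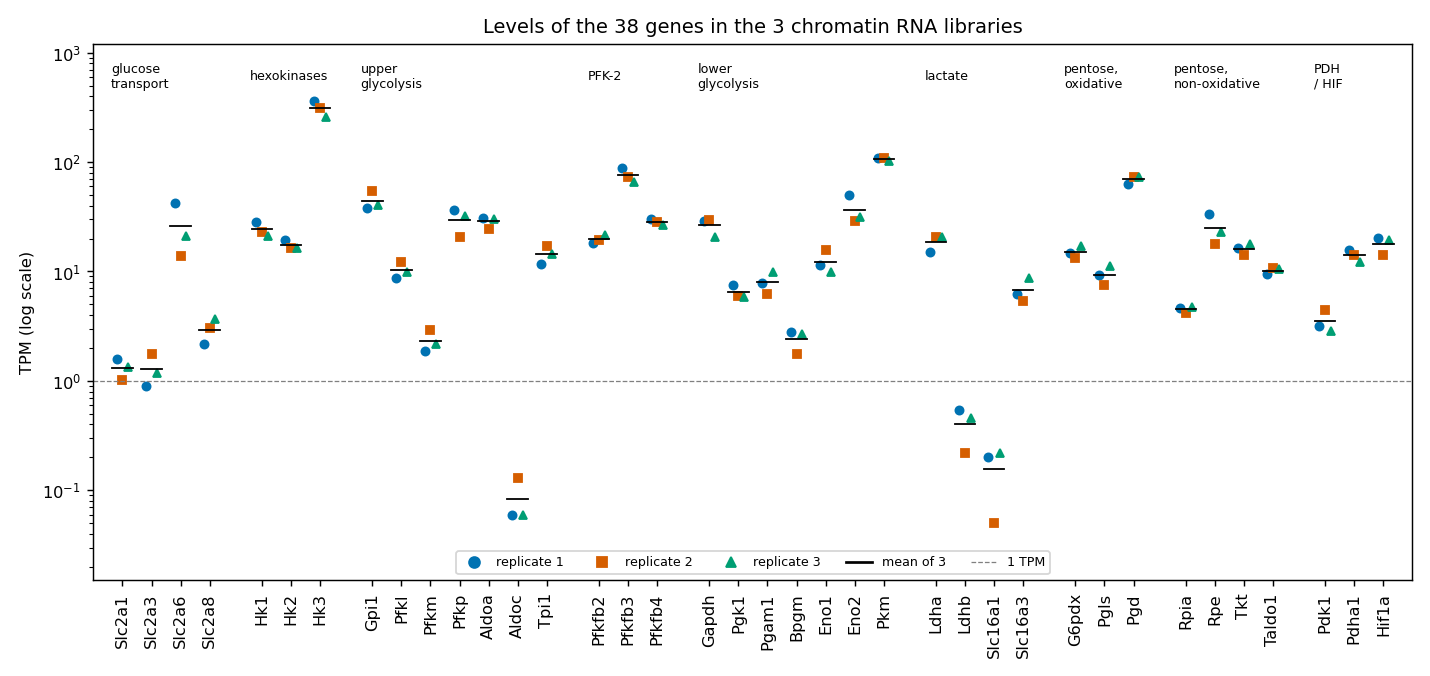
TPM of the 38 genes in each library (vertical axis, log scale), grouped by role along the horizontal axis, with points for replicates 1, 2 and 3, a black line for their mean and a dashed line at 1 TPM. Hk3 stands above all others in each library at 260 to 361 TPM, and Aldoc, Ldhb and Slc16a1 lie under the line.

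Glucose enters by facilitated transporters of the Slc2a (GLUT) family, and among the 4 in the set the highest level was not that of the ubiquitous GLUT1. Slc2a6, which encodes GLUT6, a transporter found mainly on intracellular membranes and known to be induced in inflammatory macrophages, had 42.4, 13.8 and 21.2 TPM in replicates 1, 2 and 3. It took 79.3% ± 10.01 of the TPM of the 4 transporters in the set. Slc2a1 (GLUT1) had 1.59, 1.03 and 1.35 TPM, and Slc2a3 (GLUT3, of high affinity) had 0.90, 1.77 and 1.19 TPM. These values overlapped, so the order of Slc2a1 and Slc2a3 was not resolved, while Slc2a6 exceeded both in every library. Slc2a8 (GLUT8, an intracellular transporter) lay between, at 2.16, 3.02 and 3.65 TPM. In the second quantification Slc2a8 instead had the lowest mean of the 4, at 2.58 TPM, against 3.41 for Slc2a1 and 4.99 for Slc2a3. Among 10 further glucose transporter genes, 1 reached 1 TPM in every library. This was Slc2a9, known mainly as a urate transporter, at 15.96, 19.5 and 18.1 TPM, above Slc2a6 in replicate 2 and below it in replicates 1 and 3. The next, Slc2a12, had 0.52 ± 0.12 TPM. Slc2a6 was also the least even between libraries of the 35 genes with enough counts, and it lay on chromosome 2 (27021363 to 27027998, mm10, minus strand).

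Hexokinases phosphorylate glucose and so trap it in the cell. Hk3 had 361, 309 and 260 TPM in replicates 1, 2 and 3 (310.2 ± 50.5), which placed it at rank 85 of the 21951 protein-coding genes. Hk1, the form bound to mitochondria in most tissues, had 28.5, 23.2 and 21.2 TPM. Hk2, the inducible form that HIF-1alpha can switch on, had 19.5, 16.3 and 16.2 TPM. Hk3 therefore held 88.3, 88.7 and 87.4% of the family's TPM, and the lowest Hk3 value was far above the highest of its relatives. Hk3 also led in expected counts, with 8155, 17436 and 7514 against 707, 1144 and 653 for Hk1. The second quantification gave Hk3 an even larger share, 91.4% ± 0.22. HK3 is found mainly in myeloid cells and binds glucose with high affinity. The gene lies on chromosome 13 (55005985 to 55021385, mm10, minus strand), and its end overlaps the neighbouring Unc5a on the other strand over 0.221% of its span. Of its TPM, 51.2% ± 4.32 fell on coding transcripts, led by Hk3-208 at 89.1, 99.8 and 89.6 TPM. A further 31.5% ± 5.46 fell on processed transcripts, which are spliced RNAs without an open reading frame, and 17.3% ± 1.43 on transcripts annotated for nonsense-mediated decay. Outside the family, Adpgk, which phosphorylates glucose with ADP in place of ATP, had 19.3 ± 5.001 TPM.

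Among the first steps after glucose 6-phosphate Gpi1 had the highest TPM over all transcripts, but not on coding transcripts, where Gpi1 had 3.50 ± 1.07, Aldoa 13.1 ± 3.32 and Tpi1 5.80 ± 0.25 TPM. Gpi1 encodes the isomerase at the branch point with the pentose phosphate pathway and had 38.4, 54.2 and 40.6 TPM. A noncoding gene on the other strand, Gm26762, covers 18.9% of its span and held 380.5 counts on average. Phosphofructokinase, the committed step of glycolysis, comes in platelet (Pfkp), liver (Pfkl) and muscle (Pfkm) forms. Pfkp had 36.4, 20.9 and 32.2 TPM, Pfkl 8.78, 12.1 and 9.89 TPM and Pfkm 1.88, 2.93 and 2.16 TPM. The ranges of the forms did not overlap, and Pfkp held 77.4, 58.1 and 72.8% of the family. In the first quantification this order rested on transcripts with introns. On coding transcripts alone Pfkp had 1.82 ± 0.57 TPM, Pfkl 3.46 ± 0.66 and Pfkm 2.32 ± 0.54, so that Pfkp had the lowest mean and a share of 24.5%. In replicate 1 alone Pfkp, at 2.29 TPM, was still above Pfkm, at 1.88 TPM. The second quantification differed. There coding transcripts held 23.3% of 41.0 TPM for Pfkp, 26.6% of 14.9 TPM for Pfkl and 100% of 6.54 TPM for Pfkm. By these means Pfkp was not the lowest on coding transcripts there, so the coding order depended on the quantification. Aldoa, the main aldolase, had 31.0, 24.6 and 30.4 TPM, while the brain form Aldoc had 1, 6 and 2 counts. A second entry with the symbol Aldoa, upstream of the first, had 0.16, 0.62 and 0.28 TPM and was left apart. Tpi1, the triose-phosphate isomerase, had 11.8, 17.2 and 14.4 TPM.

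The PFK-2 enzymes make or remove fructose 2,6-bisphosphate, the strongest activator of phosphofructokinase. Pfkfb3, the form with the highest kinase activity, had 88.4, 73.3 and 65.9 TPM and held 60.9% ± 3.46 of the TPM of the 3 genes. Pfkfb4 had 30.3, 28.6 and 26.8 TPM and Pfkfb2, the heart form, 18.2, 19.3 and 21.5 TPM. The order Pfkfb3, Pfkfb4, Pfkfb2 was the same in all 3 libraries and without overlap. Coding transcripts of Pfkfb3 carried 17.3 ± 3.47 TPM, or 22.8% of the gene's level, and on such transcripts its share of the family was 47.9%. There Pfkfb2 had 8.88, 9.02 and 11.4 TPM and Pfkfb4 7.42, 9.22 and 10 TPM, so their ranges overlapped and Pfkfb2 was the higher in replicates 1 and 3. The coding order was another in the second quantification. Coding transcripts held 69.3% of 34.3 TPM for Pfkfb2, 17.6% of 113 TPM for Pfkfb3 and 4.59% of 48.5 TPM for Pfkfb4. By these means Pfkfb2 was the highest and Pfkfb4 the lowest on coding transcripts.

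In lower glycolysis, Pkm was the most abundant gene and Gapdh, widely used as a reference gene, was not. Pkm, the pyruvate kinase of the last step, had 109.5, 108.1 and 102.4 TPM, with the smallest relative spread in TPM of the top genes. In CPM, the counts scaled to library size, Pgd was more even, with a 1.25-fold range against 1.30-fold for Pkm. Gapdh had 29.0, 29.4 and 20.6 TPM, and Iffo1, which overlaps 1.43% of its span on the other strand, held more counts than Gapdh (1817 on average). Pgk1, which makes the first ATP of the pathway, had 7.51, 5.98 and 5.86 TPM, Pgam1, the mutase, 7.87, 6.26 and 9.91 TPM, and Bpgm, which makes 2,3-bisphosphoglycerate, 2.81, 1.76 and 2.70 TPM. Of the enolases, Eno2, named the neuronal form, exceeded the general form Eno1 in each library. Eno2 had 50.2, 28.8 and 31.4 TPM and Eno1 11.5, 15.7 and 9.86 TPM, without overlap. Eno2 held 74.1% ± 8.50 of their sum, 61.4% ± 6.73 in the second quantification and 70.6% on coding transcripts alone. The counts pointed the same way, with 699, 981 and 558 for Eno2 and 176, 483 and 184 for Eno1. The muscle enolase Eno3 had 4.52 ± 0.57 TPM. Pseudogenes could take reads from their parent genes. The entries examined were 17 that carry the name of Aldoa, Tpi, Gapdh, Pgk1, Pgam1 or Ldha, and these were nearly empty. Of the 17, 10 were listed at 0 counts in all libraries and the highest value was 9 counts. None was named after Pkm, Bpgm or an enolase, and pseudogenes under other names were not examined.

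Pkm makes the M1 or the M2 enzyme by using one of a pair of mutually exclusive exons, and M2 is the form known from activated macrophages and from proliferating cells. Both exons are 167 bases long and lie on chromosome 9, plus strand, mm10. The upstream exon, used in M1, spans 59675029 to 59675195 and the downstream exon, used in M2, 59675568 to 59675734. They are shown because the annotated M1 and M2 transcripts are told apart by them. The share below is of the TPM of whole transcripts, of 2041 bases for M1 and 2432 for M2. It was not measured from reads on the exons alone. Capitals mark the 64 positions at which the exons differ in an ungapped alignment, and 61.7% of positions are identical.
Pkm upstream exon (M1): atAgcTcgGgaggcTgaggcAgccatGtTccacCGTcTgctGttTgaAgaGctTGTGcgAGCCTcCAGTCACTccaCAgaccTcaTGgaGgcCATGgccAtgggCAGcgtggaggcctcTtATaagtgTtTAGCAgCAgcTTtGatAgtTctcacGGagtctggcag
Pkm downstream exon (M2): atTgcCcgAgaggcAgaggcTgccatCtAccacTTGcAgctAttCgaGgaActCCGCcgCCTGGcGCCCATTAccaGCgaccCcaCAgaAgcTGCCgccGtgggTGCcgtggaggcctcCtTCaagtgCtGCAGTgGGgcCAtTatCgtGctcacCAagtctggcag
In the annotation 1 transcript holds the M1 exon (Pkm-202), 1 holds the M2 exon (Pkm-201) and 9 hold neither as a whole internal exon. The M2 transcript had 35.1, 29.1 and 31.8 TPM in replicates 1, 2 and 3. The M1 transcript had 12.9, 15.1 and 13.9 TPM, below the M2 range in each library. M2 thus held 73.2, 65.9 and 69.6% of their sum (69.5% ± 3.65), and 68.7% ± 4.33 in the second quantification. The 9 other transcripts took 60.8 ± 3.63 TPM, more than M1 and M2 together, of which the retained-intron transcript Pkm-205 had 36.3, 41.4 and 36.2 TPM. Pkm-205 ends before both exons, so its isoform is not known. A same-strand entry of uncertain coding status, Gm49759, overlaps 16.9% of the Pkm span and held 2022 counts on average.

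Pyruvate leaves glycolysis towards lactate or the mitochondrion. Ldha, whose enzyme makes lactate, had 15.0, 20.5 and 20.6 TPM, while Ldhb, whose enzyme favours pyruvate, had 4, 5 and 7 counts. Slc16a3 (MCT4), a lactate exporter and HIF-1alpha target, had 6.18, 5.36 and 8.65 TPM, and Slc16a1 (MCT1) had 10, 5 and 13 counts. Ldha and Slc16a3 thus held 97.8% ± 1.20 and 97.8% ± 1.14 of their pairs, although relatives of Slc16a3 outside the set stood higher. Slc16a6 (MCT7) had 61.6 ± 6.56 TPM and Slc16a7 (MCT2) 18.5 ± 2.51 TPM, both above every library of Slc16a3. Mpc1, a subunit of the mitochondrial pyruvate carrier, had 27.8 ± 8.42 TPM. Pdha1, the catalytic subunit of pyruvate dehydrogenase, had 15.8, 14.2 and 12.2 TPM, and Pdk1, the kinase that switches it off, 3.15, 4.48 and 2.86 TPM. This complex and its regulators had 9 further genes, 7 of them at 1 TPM or more in each library, with the highest levels for Pdhb at 31.8 ± 2.01 and Dld at 18.9 ± 5.06 TPM. Hif1a itself had 20.2, 14.1 and 19.4 TPM. Of 8 further HIF genes, 5 were at 1 TPM or more throughout, and the highest were Arnt, the partner of HIF-1alpha, at 57.5 ± 2.64 TPM and the prolyl hydroxylase gene Egln2 at 17.5 ± 0.73 TPM.

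In the pentose phosphate pathway the NADPH-making dehydrogenases differed. Pgd, the second of them, had 63.0, 72.9 and 73.5 TPM, and G6pdx, the rate-limiting first, 14.6, 13.3 and 17.1 TPM. The lactonase gene Pgls, between them, had 9.32, 7.56 and 11.2 TPM. In the second quantification G6pdx was higher, at 29.0 TPM, and Pgd lower, at 67.6 TPM, with the same order. G6pdx lies within the span of Ikbkg, an NF-kB pathway gene on the opposite strand with 1130 counts on average, against 277, 525 and 370 for G6pdx. In the non-oxidative arm Rpe, the epimerase, had 33.4, 17.7 and 23.0 TPM, Tkt, transketolase, 16.4, 14.1 and 17.97 TPM, Taldo1, transaldolase, 9.45, 10.7 and 10.5 TPM and Rpia, the isomerase, 4.68, 4.15 and 4.71 TPM. The ranges of Rpe and Tkt overlapped between libraries, but Rpe was the higher within each library. On coding transcripts alone Rpe had 22.2 ± 8.67 TPM and Tkt 1.92 ± 0.31 TPM. Taldo1 had 24.7 TPM in the second quantification, where it exceeded Tkt at 18.4 TPM. Of 8 further pentose phosphate genes, 4 were at 1 TPM or more throughout, and the highest were the ribokinase gene Rbks (6.05 ± 1.86 TPM) and Prps1l3 (3.06 ± 0.78 TPM).

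**Figure D2:**
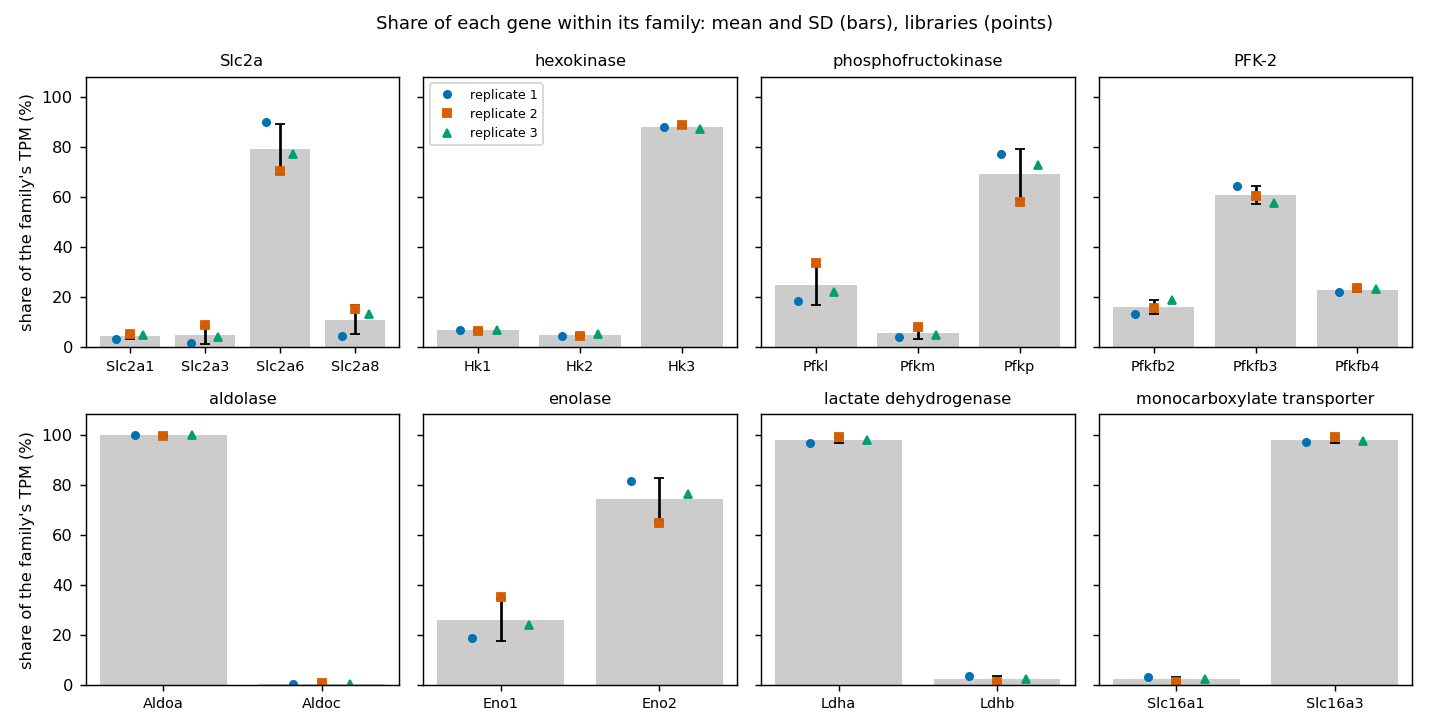
Share of each gene in the summed TPM of its family (vertical axis, per cent), in 8 panels, with bars for the mean of 3 libraries, error bars for the SD and points for the libraries. Families hold only the genes of the set, and TPM is over all transcripts. On this basis a single gene leads each family, from 60.9% for Pfkfb3 to 99.7% for Aldoa. Of the leading shares in families with 3 or more genes, that of Hk3 differs least between libraries.

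Over all 80 further pathway genes, 46 reached 1 TPM in every library and 12 were listed at 0 in each, with a median level of 2.84 TPM. Genes of sugar entry and glycogen were led by Mpi, the mannose phosphate isomerase, at 21.8 ± 0.96 TPM and the glycogen phosphorylase Pygb at 19.5 ± 1.86 TPM. The list of glucose-sensing genes also held Myc and its partner Max, which are not glucose sensors. Max was the highest of the list, at 93.7 ± 23.3 TPM. Next was Txnip, a glucose-induced inhibitor of glucose uptake, at 27.4, 43.1 and 52.9 TPM in replicates 1, 2 and 3.

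Much of the level of these genes lay on transcripts annotated with a retained intron, a class in which an exon of the transcript runs through all or part of an intron. Over the 35 genes with a mean of 1 TPM or more, the median share of a gene's TPM on coding transcripts was 42.2% (46.7, 35.8 and 46.3% by library). It was 56.4% over the 10453 protein-coding genes of the same level. The median share on retained-intron transcripts was 47.6% for the members and 26.7% for those genes. More of the members have such a transcript in the annotation, 29 of 38 (76.3%) against 62.4%. Among genes that have one, the members' medians came nearer to the others, at 55.004% against 46.9% for retained introns and at 40.8% against 43.5% for coding transcripts. In the second quantification the retained-intron medians of these genes were 48.0 and 45.3%.

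The genes differed widely in this share. Pfkp had 93.7, 94.3 and 93.8% of its TPM on retained-intron transcripts and Gpi1 94.1, 92.1 and 89.9%. Tkt followed with 77.7% ± 7.33, Pgd with 71.6% ± 3.50, Gapdh with 62.6% ± 6.85 and Pfkfb4 with 61.2% ± 7.17. Pkm had 36.7% ± 2.34, Ldha 35.2% ± 4.67 and Hk1 19.0% ± 4.21. Genes without an annotated retained-intron transcript, such as Hk3, Hk2, Rpe, Slc2a6 and Pdk1, stand at 0 by construction. In Slc2a6 and Pdk1 most TPM of the first quantification instead fell on processed transcripts, 81.0% ± 6.69 and 68.0% ± 4.81. The leading transcript of Slc2a6, of that class, had 24.4, 7.27 and 11.9 TPM. For Slc2a6 this did not hold in the second quantification, where coding transcripts had 52.0% of its TPM, against 19.0% in the first. For Pdk1 the coding share was 19.5% in the second. Slc2a3 stood at 92.3% ± 8.86, but with 29 to 119 counts per library. By the second quantification retained-intron shares were lower for Slc2a3 (44.8%), Pfkp (70.7%), Gpi1 (77.6%), Tkt (63.2%), Pfkfb4 (39.0%), Pkm (16.8%) and Hk1 (16.4%). They were higher for Gapdh (82.7%), Pgd (75.1%) and Ldha (40.7%).

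**Figure D3:**
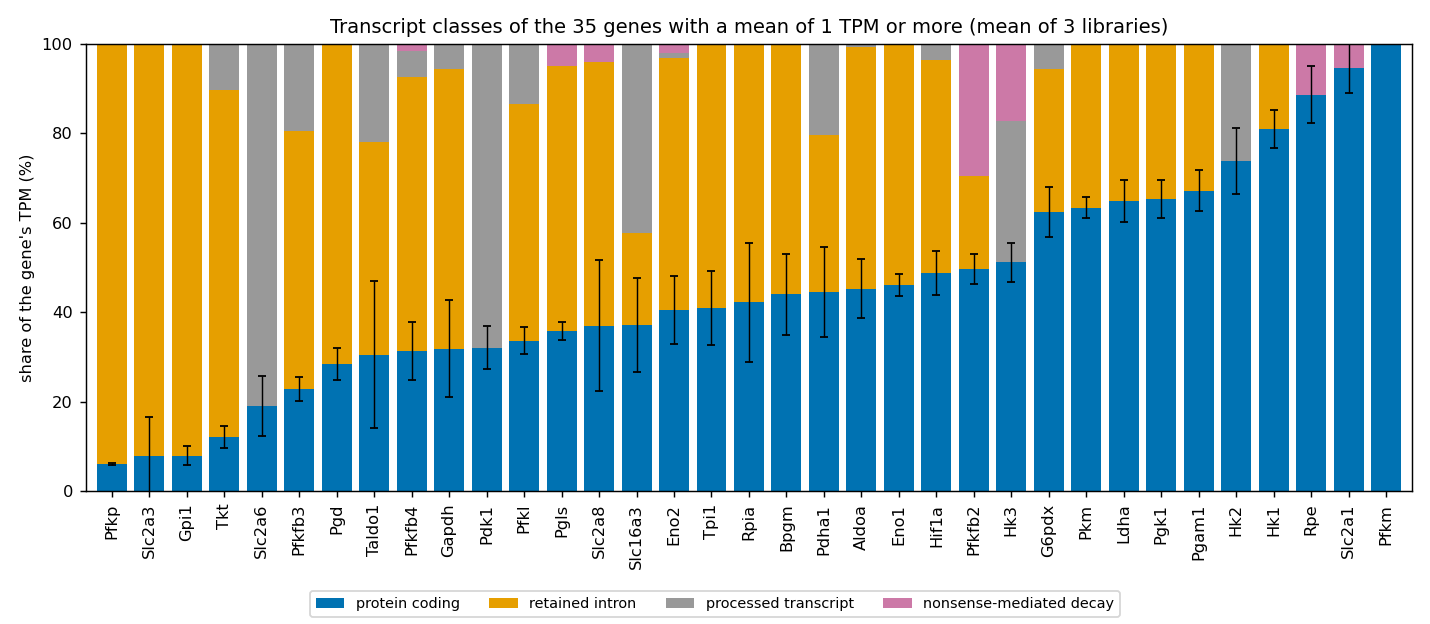
Share of each gene's TPM (vertical axis, per cent, mean of 3 libraries) on coding, retained-intron, processed and nonsense-mediated decay transcripts for the 35 genes at a mean of 1 TPM or more, ordered by the coding share, with the SD of the coding share as error bars. Pfkp, Slc2a3, Gpi1 and Tkt are on the left, with 6.05 to 12.0% coding, and Slc2a1 and Pfkm are at the right end. All shares shown are those of the first quantification.

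Intron sequence made up a large part of some of these transcripts and a small part of others. The leading retained-intron transcript of Gpi1 (18.3 ± 3.50 TPM) is 3195 bases long, and 64.7% of its bases lie outside every coding exon of the gene. Pgd-202 is 3644 bases long with 91.1% outside, Pfkp-212 is 8681 bases long with 80.1% outside, and Gapdh-213, a single exon of 3289 bases on chromosome 6 (125161715 to 125165003, mm10), has 64.8% outside. Over all 77 retained-intron transcripts of the 29 genes the median was 38.7%, with a range of 5.41 to 93.6%. The leading ones of Tpi1 (Tpi1-204) and Aldoa (Aldoa-208) had only 5.41 and 10.8% outside. Where these are the annotated transcripts that cover an intron, reads of RNA not yet spliced and of RNA that keeps the intron are counted together and cannot be told apart. A level set by such transcripts, as for Pfkp and Gpi1, is therefore a level of chromatin RNA and not of mRNA.

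Between libraries the genes were compared in CPM (expected counts scaled to library size with TMM factors), which is suited to 1 gene across libraries. Of the 38 genes, 35 had a mean of 50 counts or more. In 11 of them (31.4%) the highest library was 1.5-fold or more above the lowest, against 24.1% of 9533 protein-coding genes with the same counts. On the log2 CPM scale the members' median SD was 0.26 against 0.19, and the median fold between highest and lowest library 1.43 against 1.29. Without replicate 2 it was 2 of 34 genes (5.88%, background 9.58%), without replicate 1 it was 6 of 35 (17.1%, background 9.16%), and without replicate 3 it was 11 of 35 (31.4%, background 17.9%). The members' share thus lay above the background with replicate 2 in the comparison and below it without. On the deposited TPM it was 13 of 35 (37.1%, background 40.5%).

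Slc2a6 had the largest spread, with 82.3, 32.3 and 42.2 CPM in replicates 1, 2 and 3, a 2.55-fold range. Replicate 1 was high and replicates 2 and 3 were low. The other 10 genes past 1.5-fold were all highest in replicate 2. In Slc2a8 replicates 2 and 3 were nearly equal, with 3.74, 6.90 and 6.87 CPM in replicates 1, 2 and 3. Gpi1 had 62.5, 117 and 74.6 CPM, Pfkl 12.2, 23.2 and 15.9, Gapdh 27.5, 38.8 and 22.3, Eno1 12.6, 20.5 and 11.4 and Hk3 581, 735 and 462. Replicate 2 was the highest in each of these 5 genes, Gpi1, Pfkl, Gapdh, Eno1 and Hk3. Replicates 1 and 3 lay close together in Eno1, while Hk3 was graded, with replicate 1 midway between the others, and in TPM Hk3 was highest in replicate 1. Slc2a3 (2.36-fold), Slc2a8 (1.84-fold), Pfkm (1.99-fold), Pfkfb4 (1.53-fold) and Pdk1 (1.76-fold) were the rest, and of these Slc2a3, Slc2a8 and Pfkm had 201 counts or fewer in each library. At the threshold, Pfkfb4 lay just above it and Rpe, at 1.495-fold and highest in replicate 1, just under it. The most even genes were Aldoa (1.05-fold), Tkt (1.065-fold) and Bpgm (1.14-fold).

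**Figure D4:**
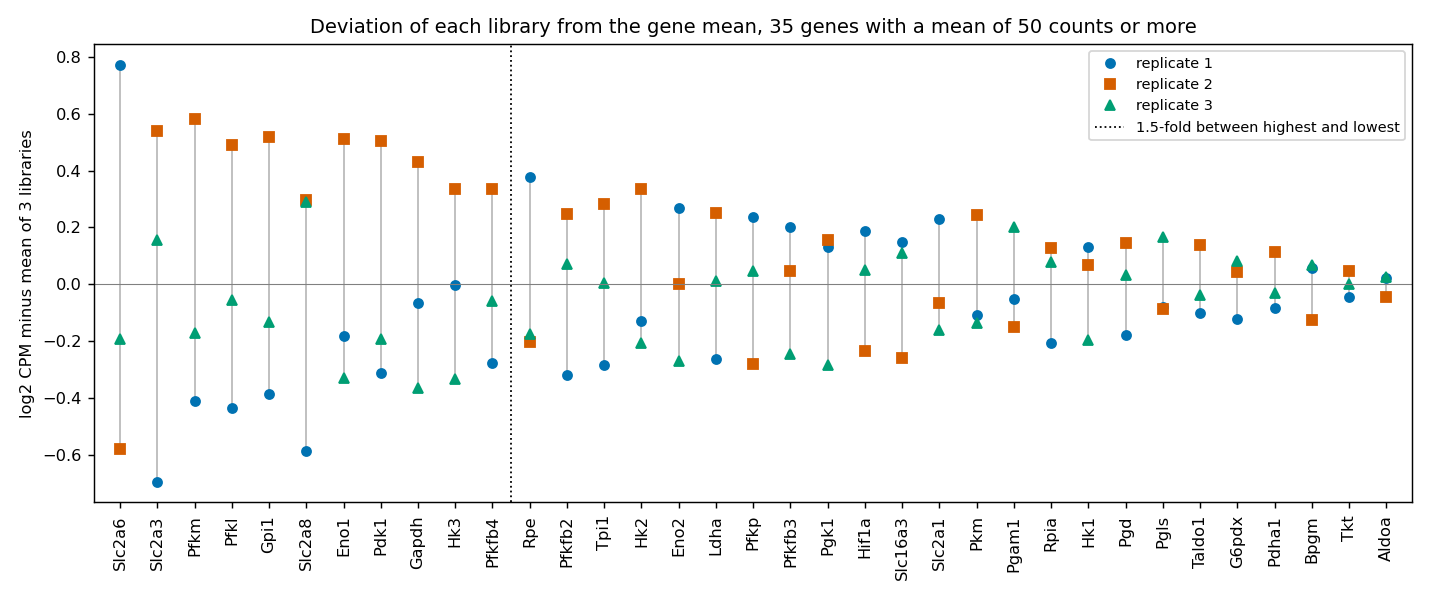
Log2 CPM of each library minus the gene's mean over the 3 libraries (vertical axis) for the 35 genes with a mean of 50 counts or more, ordered by the fold between the highest and the lowest library, with a dotted line at 1.5-fold. Slc2a6 is highest in replicate 1, and the 10 other genes left of the line are highest in replicate 2, with replicate 3 nearly equal in Slc2a8.

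In CPM 21 of the 35 genes (60.0%) were highest in replicate 2, against 39.7% of protein-coding genes, 9 in replicate 1 (32.1%) and 5 in replicate 3 (28.3%), with the background in brackets for the last pair. In the deposited TPM the count for replicate 2 was 9 of 35 (25.7%) against 9.44%, for replicate 1 it was 16 against 51.4% and for replicate 3 it was 10 against 39.1%, so the library that was highest changed with the scale. The median log2 difference of replicate 1 minus replicate 2 was -0.24 in CPM for the members and -0.04 for protein-coding genes, and 0.15 and 0.29 in log2(TPM + 1). The members therefore lay below the median gene of replicate 1 relative to replicate 2 on both scales, although the sign of the raw difference flips. For replicate 3 minus replicate 2 the members had -0.18 in CPM against -0.01, and 0.004 against 0.26 in log2(TPM + 1). Replicate 1 minus replicate 3 gave -0.04 against -0.03 in CPM and 0.04 against 0.04. Replicate 2 was the deepest library and had the least starting RNA. The part of either in this difference, or of the collagen, Cd14 and Cd68 differences given above, was not tested.

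The second deposited quantification, a separate transcript table summed per gene, gave higher TPM for 33 of the 38 genes. The median ratio of second to first was 1.47 for the members and 1.34 for protein-coding genes at a mean of 1 TPM or more. In 7 genes it was 2 or more, among them Slc2a3 (3.88), Pfkm (2.82), Slc2a1 (2.58) and Taldo1 (2.42). Hk3 had 310.2 TPM in the first and 572 in the second, and Gapdh 26.3 and 19.3 TPM. The order Hk3, Pkm, Pfkfb3, Pgd at the top was kept.

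**Figure D5:**
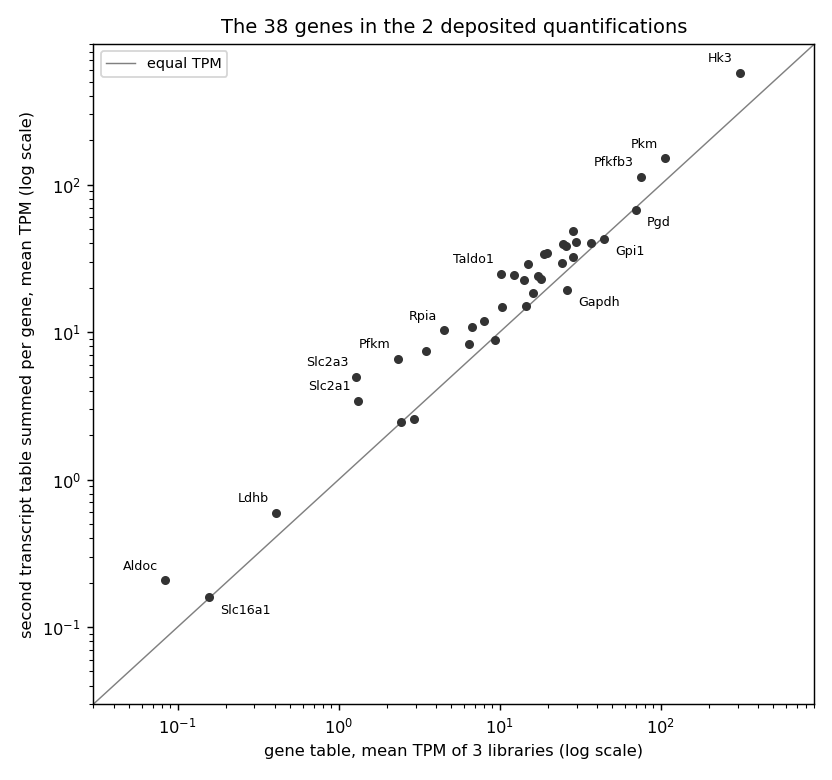
Mean TPM of the 38 genes over 3 libraries in the gene table (horizontal axis, log scale) and in the second transcript table summed per gene (vertical axis, log scale), with a line at equal TPM. Most points lie above the line, with Slc2a3 and Pfkm far above it and Gapdh below it.

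Since several of these enzymes are textbook targets of HIF-1alpha and of MYC or MLX-type factors, promoters were searched for the letters of their binding cores. The letters searched were ACGTG as the first HIF core, GCGTG as the second and CACGTG as the E-box, each on both strands, and a CACGTG also counts as ACGTG. Windows ran from 250 bases before to 50 after each start in the RefSeq table of build GRCm38.p6, where 37 of the 38 genes matched with 53 promoters. Either HIF core occurred in 42 of 53 promoters (79.2%), against 62.4% of 10134 promoters of protein-coding genes at 1 TPM or more in every library and 43.8% of all 32851 promoters. ACGTG alone occurred in 41.5, 25.9 and 19.6% of these sets. CACGTG occurred in 6 of 53 (11.3%), in promoters of Ldha, Pfkfb2, Pfkfb3, Pfkm, Slc16a1 and Hif1a, against 10.3 and 7.15%. The median number of CG dinucleotides, which both HIF cores contain, was 20 per window in the members, 21 in the second set and 7 in all. Gpi1, Tpi1, Eno2, Bpgm and Rpe held none of these letters in their windows. A match is a run of letters and was not tested as a binding site.

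Of the genes of the glycolytic chain that held a core, the 5 with the highest TPM are shown, so that the letters can be seen next to the levels above. Capitals mark either HIF core or its reverse complement, positions count from -1 at the base before the start, and each line is upstream of the start on the gene's strand. Hk3 (chr13:55021386-55021635, minus, -250 to -1) has 1 core, Pfkp (chr13:6648778-6649021, minus, -250 to -7) has 3 here, Aldoa (chr7:126799255-126799428, minus, -250 to -77, a promoter inside the gene) has 1 and Gapdh (chr6:125165774-125166023, minus, -250 to -1, likewise inside the annotated gene) has a pair. Of Pkm only 30 bases round the core are given (chr9:59657140-59657169, plus, -87 to -58), since its upstream part overlaps annotated exons.
Hk3 promoter: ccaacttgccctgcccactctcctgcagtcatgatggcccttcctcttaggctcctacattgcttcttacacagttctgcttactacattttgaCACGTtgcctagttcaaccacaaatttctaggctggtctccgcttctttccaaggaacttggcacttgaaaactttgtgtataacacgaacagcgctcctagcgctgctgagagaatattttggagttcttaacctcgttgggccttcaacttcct
Pkm promoter, internal start: ctccgatccggtCACGTccgcgccgcagca
Pfkp promoter: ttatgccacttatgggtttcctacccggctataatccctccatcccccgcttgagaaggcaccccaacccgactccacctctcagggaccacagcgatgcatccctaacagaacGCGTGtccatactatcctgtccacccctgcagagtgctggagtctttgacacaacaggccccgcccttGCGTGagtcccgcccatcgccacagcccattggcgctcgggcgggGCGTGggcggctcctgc
Aldoa promoter, internal start: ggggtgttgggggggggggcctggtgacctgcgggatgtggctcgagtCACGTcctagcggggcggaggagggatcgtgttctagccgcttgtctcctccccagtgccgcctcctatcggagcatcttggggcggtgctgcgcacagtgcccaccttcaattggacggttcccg
Gapdh promoter, internal start: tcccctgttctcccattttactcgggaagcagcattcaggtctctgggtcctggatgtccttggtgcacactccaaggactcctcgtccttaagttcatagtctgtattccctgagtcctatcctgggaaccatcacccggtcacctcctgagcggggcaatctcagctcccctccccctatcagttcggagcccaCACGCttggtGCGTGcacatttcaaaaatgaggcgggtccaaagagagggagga
Hk3, the gene with the highest level, has a single core in its window, while Pfkp has GCGTG repeated and no ACGTG.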

How the data were processed

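Each library has a gene table, a matching transcript table and an independent second transcript table, all deposited by the authors. Per the file headers, the authors' gene table and matching transcript table give expected counts, estimated and so not always whole. The deposited TPM values are scaled for effective length within a library over all 81881 entries of the gene table, spike-ins and phiX included. The deposited FPKM values of the gene table were used for an alternative. Build mm10 and annotation M21 are named in the notes deposited with each library. For aligner, programs and strand use, nothing was found (not given in the sources used here), so overlapping genes may share reads: 21 members overlap another gene, 10 of them a protein-coding gene on the other strand.

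Symbols were matched through the identifiers of the second table, which lacks 86 named genes, and 97 of its 141864 transcripts had another class than in the annotation or were not in it. Where Aldoa occurred 2 times the lowest identifier was used. Expected counts were rounded, scaled with TMM factors of edgeR 4.0.16 (1.03, 0.984 and 0.985) over the 55536 named genes, and turned into log2 CPM with a prior count of 2 for genes with a mean of 50 counts. Entries without a gene name took 2.46, 0.484 and 0.327% of counts and stayed out of library sizes. DESeq2 1.42.0 size factors were an alternative. R 4.3.3, Python 3.11.15, pandas 2.3.3, numpy 2.4.6 and matplotlib 3.10.9 were used, and the spread calculation was tested on simulated data. With 1 group there is no contrast, so no test was run. The floor of 3 counts covers counting error alone, since reads without molecular identifiers are no independent molecules. The rule for named genes took all 38 members, and of further pathway genes the 2 highest per list and any above every member of its family. Promoters were shown for up to 5 genes of the chain with the highest TPM that hold a core. The members and lists were chosen with earlier results of these data known. Promoter sequences are from RefSeq (GRCm38.p6) and exon sequences from GENCODE M21.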

Additional observations from a re-analysis of the deposited data

How the results depend on the processing

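With 1 group and 3 libraries every value is a description, and a library left out leaves 2. Under other settings, 69 values stayed within the spread between libraries or within 1.5 times for counts, 23 moved further and 4 changed sign. The members' median log2(TPM + 1) of 3.96 was 3.88 with a pseudocount of 0.1, 4.09 over genes with a mean of 1 TPM or more, 4.55 in the second quantification, 3.86 in FPKM and 3.97 to 4.04 with a library left out. The median SD of log2 CPM was 0.18 to 0.27 with a library left out. The count of genes past 1.5-fold was 2 to 11 with a library left out, lowest without replicate 2, and 2 genes passed 2-fold. On log2(TPM + 1) the median differences of replicates 1 minus 2, 1 minus 3 and 3 minus 2 changed sign to 0.15, 0.042 and 0.0040, and 1 minus 3 was 0.022 with library size alone. Family shares moved in the second quantification to 91.4% (Hk3), 99.4% (Aldoa) and 61.4% (Eno2), and in expected counts, which are not scaled for length, to 85.5% (Hk3), 55.2% (Pfkfb3), 99.4% (Aldoa) and 94.9% (Slc16a3). On coding transcripts of the first quantification alone, a setting chosen after seeing the data, they were 62.6% (Slc2a6), 82.9% (Hk3), 24.5% (Pfkp), 47.9% (Pfkfb3), 99.3% (Aldoa) and 94.5% (Slc16a3). The cause was not tested. Counts of 13 or fewer limit what can be said of Aldoc, Ldhb and Slc16a1. No paired analysis was possible because the series has 1 group.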
